A study of Mus musculus with 12 samples.

Results

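The 10 genes described here encode the sensors, transcription factors and effectors of the unfolded protein response and the linked integrated stress response. They were taken from a fixed list of gene symbols, chosen with earlier results of these data known, and sorted by branch. Ern1, Xbp1 and Dnajb9 stand for the IRE1 branch, Eif2ak3, Atf4 and Ddit3 for the PERK branch, and Atf6, Hspa5, Herpud1 and Creld2 for the ATF6 branch. All 10 symbols were found among the 23235 genes of the deposited table. Poly(A) RNA had been profiled in wild-type (WT) and Mtr4-null mouse oocytes taken from ovaries, at postnatal day 14 (labelled growing oocytes) and day 21 (labelled germinal vesicle oocytes). MTR4 is an RNA helicase that feeds nuclear transcripts into the exosome, which degrades them. Each of the 4 groups has 3 labelled libraries of 10 oocytes. The sources used here do not give how or in which cells the gene was deleted, or whether libraries came from separate animals, and they name no treatment.

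The unfolded protein response is the reaction of a cell to misfolded protein in the endoplasmic reticulum (ER). IRE1 cuts the Xbp1 mRNA so that a strong transcription factor is made from it, PERK slows translation through eIF2alpha and favours translation of ATF4, and ATF6 is cleaved to release a transcription factor. In many mammalian cells these arms raise ER chaperones and degradation factors, and a lasting response raises the death-linked factor CHOP, encoded by Ddit3. Growing oocytes make and secrete much zona pellucida glycoprotein through the ER.

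The authors deposited 1 mean per gene and group, in FPKM (fragments mapped to a gene, scaled by its length and by the library's total). No spread between libraries, depth or p-value can therefore be given, and every difference below is a description of size. Neighbours in any order of levels cannot be told apart by replicate error. Differences are given on the log2(FPKM + 1) scale, on which low genes show less than their true fold, and a gene is called higher or lower at a 2-fold difference on that scale. The background is formed by 11913 genes that reached an average of 1 FPKM or more. All 10 members passed this filter, but Herpud1, with a mean of 1.15 FPKM, passed only through its day 21 Mtr4-null value, since its mean over the other groups was 0.837 FPKM.

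Some facts of the whole table bear on these values. Skiv2l2, the older symbol of the gene for MTR4, was 17.6-fold lower in Mtr4-null oocytes at day 14 and 6.80-fold lower at day 21. Of the values above 0, between 55.4% and 57.4% have the endless decimals of a mean of 3 in 3 of the columns, and 0.120% do in the Mtr4-null day 21 column, so that column may average another number of libraries. All 11 oocyte markers passed the filter, and their summed level ranged from 11488 to 19359 FPKM. The 14 granulosa markers summed to between 17.4 and 33.0 FPKM, with Foxl2 at most at 0.320 and Amh at most at 0.254 FPKM. The granulosa marker Inha was higher in Mtr4-null oocytes at day 21, at 10.9 against 1.72 FPKM, and Cyp19a1 lower, at 1.48 against 25.3 FPKM. The 10 theca, stroma, blood and endothelial markers summed to between 2.25 and 21.4 FPKM, most of it Pecam1. The part of such cells in the results below was not tested. In pooled oocytes, a difference in every cell and a larger one in a few of the 10 cells cannot be told apart.

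The branches act through known RNA and DNA elements, and the matches that a search found in the members are printed here. The first is the stretch of Xbp1 mRNA that IRE1 removes, shown in capitals with 10 coding bases on either side. It was placed by the loop letters (C, any base, then GCAGCA) at both cut sites, 26 bases apart, a spacing known from earlier work. It covers bases 815 to 840 of the GENCODE transcript Xbp1-201 on chromosome 11. FPKM of the whole gene do not separate cut from uncut mRNA, so the Xbp1 values below say nothing of this step.
Xbp1: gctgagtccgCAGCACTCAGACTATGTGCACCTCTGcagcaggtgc

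Promoters were read from RefSeq (GRCm38.p6, 250 bases before to 50 after the start), where 9 of the 10 members had one and Atf6 was not matched. Both strands were searched for the ER stress response element ERSE (CCAAT, any 9 bases, then CCACG), which NF-Y together with ATF6 or XBP1 is known to bind, for its shorter form ERSE-II (ATTGG, any base, then CCACG), for the UPR element (TGACGTGG) and for a C/EBP and ATF composite (TGATGNAA). ERSE-II can share its CCACG with another match, but none of the printed ones does. The exact ERSE was found in 2 members, Hspa5 and Creld2, and in 0.119% of all 32851 promoters. ERSE-II was found in Herpud1 and in 0.0365% of promoters, and the composite in Herpud1 and in 3.97%. The UPR element was found in no member and in 0.676% of promoters. With 1 mismatch allowed, ERSE was also found in Herpud1 and Ddit3, and in 1.504% of promoters. Each line shows 30 bases in the direction of the motif, with matching letters in capitals.
Hspa5 ERSE: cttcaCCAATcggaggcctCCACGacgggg
Creld2 ERSE: tgtggaCCAATtgaggctcgCCACGagaag
Herpud1 ERSE-II: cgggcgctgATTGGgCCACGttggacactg
Herpud1 composite: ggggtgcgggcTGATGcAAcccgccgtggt
Herpud1 ERSE with 1 mismatch: ctcagCCAATggatggcagCCACagagagc
Ddit3 ERSE with 1 mismatch: agcctaCCAATcagaaagcggCACGctggc

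In Hspa5 the element lies 65 to 47 bases upstream of the start, within chr2:34772020-34772049 (GRCm38.p6, plus strand). In Creld2 it lies 126 to 108 bases upstream on the strand opposite to the gene, within chr15:88819515-88819544. The ERSE-II of Herpud1 lies 52 to 42 bases upstream, within chr8:94386368-94386397, and its composite 112 to 105 bases upstream on the opposite strand, within chr8:94386306-94386335. The imperfect ERSE of Herpud1 begins 18 bases upstream and ends at the start, within chr8:94386406-94386435. That of Ddit3 lies 91 to 73 bases upstream on the opposite strand, within chr10:127290697-127290726. A match is a description of letters and not a site of binding.

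Taken over both ages, the 10 genes did not move as a unit. Their choice was made with earlier results of these data known, so shares set beside those of all genes are descriptive. At day 14 none of the 10 was 2-fold higher or lower in Mtr4-null oocytes on the log2(FPKM + 1) scale, against 8.10% of all genes higher and 1.55% lower (9.65% in either direction). On that scale 6 members were above 0 and 4 below. The largest plain ratios of FPKM were 2.005 for Dnajb9, 1.98 for Xbp1 and 1.89 for Eif2ak3. Quantile normalization changed the balance of all genes at day 14 from 965 higher and 185 lower to 708 and 321, and still placed no member past 2-fold. At day 21, 5 members were higher (Xbp1, Dnajb9, Eif2ak3, Herpud1 and Ddit3) and 2 were lower (Creld2 and Atf6), against 20.2% and 25.7% of all genes (46.0% in either direction). The higher ones included 2 of 3 IRE1 members and 2 of 3 PERK members, and the ATF6 branch held both lower ones and 1 higher, Herpud1. That gene passed the filter only through its day 21 Mtr4-null value, which favoured its call. With a minimum mean FPKM of 5, which leaves Herpud1 out, 4 members were higher and 2 lower. The median of the members was 0.15 at day 14 and 0.96 at day 21, where all genes had medians of 0.052 and -0.27. Relative to the all-gene median, the 10 members stood at 0.10 and 1.23.

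**Figure D1:**
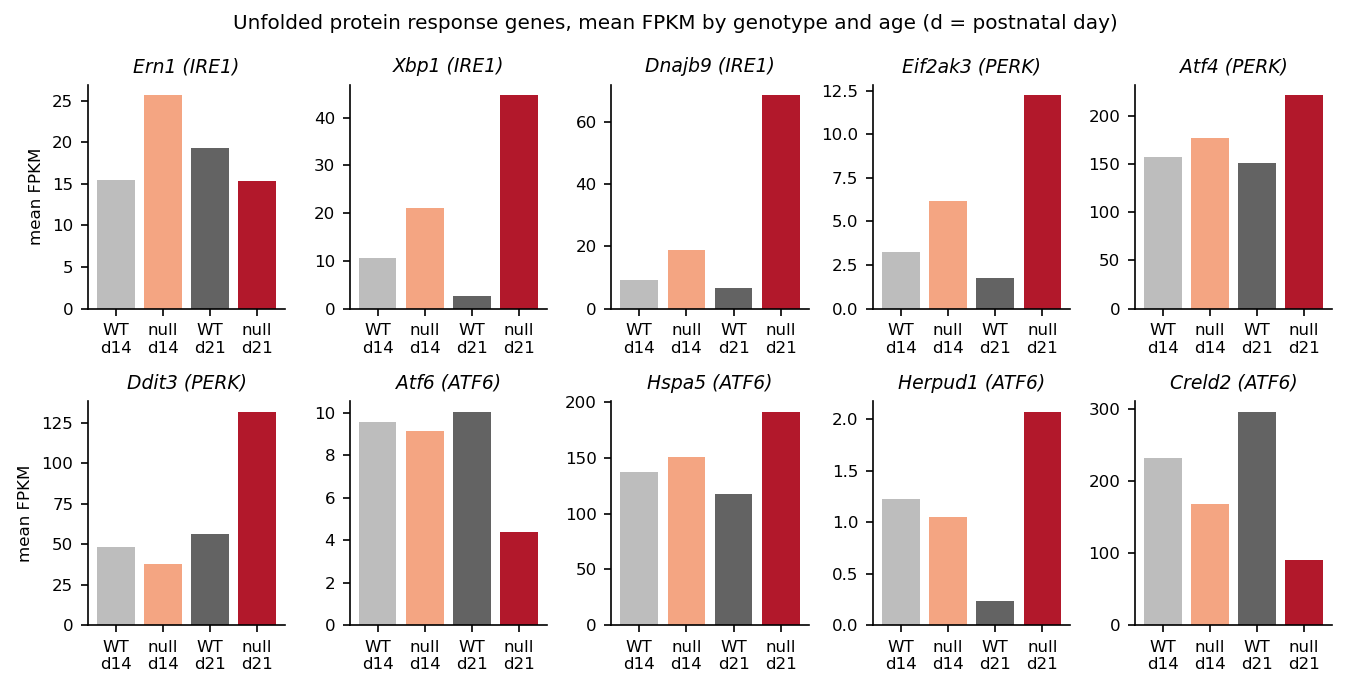
Mean FPKM (vertical axis, linear, a scale for each gene) of the 10 genes in WT and Mtr4-null (null) oocytes at day 14 and day 21, with the branch in brackets; bars are the authors' group means and have no error. Xbp1, Dnajb9 and Eif2ak3 are highest in Mtr4-null oocytes of day 21, at 44.7, 68.8 and 12.2 FPKM, and Creld2 is lowest there, at 91.0 FPKM.

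Ern1 encodes IRE1alpha, the kinase and endoribonuclease that gives its branch its name. Its level was 15.5 (WT) and 25.7 FPKM (Mtr4-null) at day 14, and 19.4 (WT) and 15.3 FPKM (Mtr4-null) at day 21. The Mtr4-null mean was thus above WT at day 14 and below it at day 21, with log2 differences of 0.70 and -0.32 that both stay under 2-fold. Relative to the median of all genes the day 21 difference was -0.048, and over the settings tried it ranged from -0.32 to 0.09 on that relative scale.

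Xbp1, the target of IRE1 and itself a transcription factor of ER capacity, had the widest swing. At day 14 it measured 10.6 (WT) and 21.04 FPKM (Mtr4-null). At day 21 the WT level was 2.57 FPKM and the Mtr4-null level 44.7 FPKM. WT and Mtr4-null means therefore moved apart, from 1.98-fold at day 14 to 17.4-fold at day 21, with log2 differences of 0.92 and 3.68. Of the 11913 genes, 3.11% had a larger positive difference at day 21. Xbp1 ranked sixth of the members in WT at day 14, eighth in WT at day 21 and sixth in Mtr4-null oocytes at day 21, and these ranks carry no error.

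Dnajb9, also called ERdj4, is a J-domain co-chaperone of BiP and a classic XBP1 target that restrains IRE1. Its level was 9.33 (WT) and 18.7 FPKM (Mtr4-null) at day 14, then 6.48 and 68.8 FPKM at day 21. The pattern follows that of Xbp1 with a smaller swing in WT. Log2 differences were 0.93 and 3.22, the latter a 10.6-fold ratio of FPKM, and 4.01% of all genes exceeded it at day 21.

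Eif2ak3 encodes PERK, the ER membrane kinase that phosphorylates eIF2alpha. It was a low transcript, at 3.26 (WT) and 6.14 FPKM (Mtr4-null) at day 14, and at 1.74 and 12.2 FPKM at day 21. Both ages had the Mtr4-null mean above WT, by 0.75 and 2.27 on the log2 scale, and the FPKM ratio at day 21 was 7.02. In GENCODE M21, 485 of its exonic bases lie opposite exons of Gm43292, and the library method does not keep the strand, so reads there could come from either gene.

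Atf4 encodes the transcription factor whose translation rises when eIF2alpha is phosphorylated, a step that mRNA levels do not show. It was among the most abundant members, at 157 (WT) and 177 FPKM (Mtr4-null) at day 14, and at 151 and 221 FPKM at day 21. The 4 means lay close together, with genotype differences of 0.17 and 0.55. At day 21, 27.7% of all genes had a larger positive difference.

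Ddit3, the gene of CHOP and a target of ATF4, had its Mtr4-null mean below WT at day 14 and above it at day 21. It measured 47.9 (WT) and 37.9 FPKM (Mtr4-null) at day 14, and 56.4 and 132 FPKM at day 21. Only the day 21 Mtr4-null mean stood out, 2.33-fold above WT, with log2 differences of -0.33 and 1.21. Up to 105 of the exonic bases of Ddit3 are shared with another gene model, among them Mars and Gm4189 on the opposite strand, so its values carry that uncertainty.

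Atf6, the membrane-bound factor that is cut in the Golgi, was nearly level at 9.56 (WT) and 9.11 FPKM (Mtr4-null) at day 14 and 10.0 FPKM in WT at day 21. In Mtr4-null oocytes at day 21 it was at 4.39 FPKM, 2.29-fold below WT, with a log2 difference of -1.03. That call is at the edge of the rule. Under median-of-ratios scaling the difference was -0.91, and relative to the median of all genes it was -0.76.

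Hspa5 encodes BiP, the main ER Hsp70 chaperone and the customary readout of the response. Its level was 137 (WT) and 151 FPKM (Mtr4-null) at day 14, and 118 and 192 FPKM at day 21. The day 21 Mtr4-null mean was the highest of the 4, but the difference of 0.70 did not reach 2-fold on the deposited scale or under any of the 6 alternatives, where it ranged from 0.60 to 0.85. Herpud1, an ER membrane protein of the degradation complex, was the lowest member in every group, at 1.23 (WT) and 1.05 FPKM (Mtr4-null) at day 14, and at 0.230 and 2.08 FPKM at day 21. Its log2 difference was 1.32 at day 21, and with a pseudocount of 0.1 it was 2.72, which shows how much such low values depend on the pseudocount.

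Creld2, an ER-resident disulfide isomerase-like protein that ER stress is known to induce, had the most negative genotype difference of the 10 at both ages on the deposited scale. It was the most abundant member in WT, at 233 FPKM at day 14 and 297 FPKM at day 21. Mtr4-null oocytes held 168 and 91.0 FPKM, so the genotype difference went from -0.47 to -1.70, a 3.26-fold lower level at day 21. At day 21, 9.05% of all genes had a more negative difference. Hspa5 and Creld2, the members with the exact ERSE printed above, thus lay on opposite sides of 0 at day 21.

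**Figure D2:**
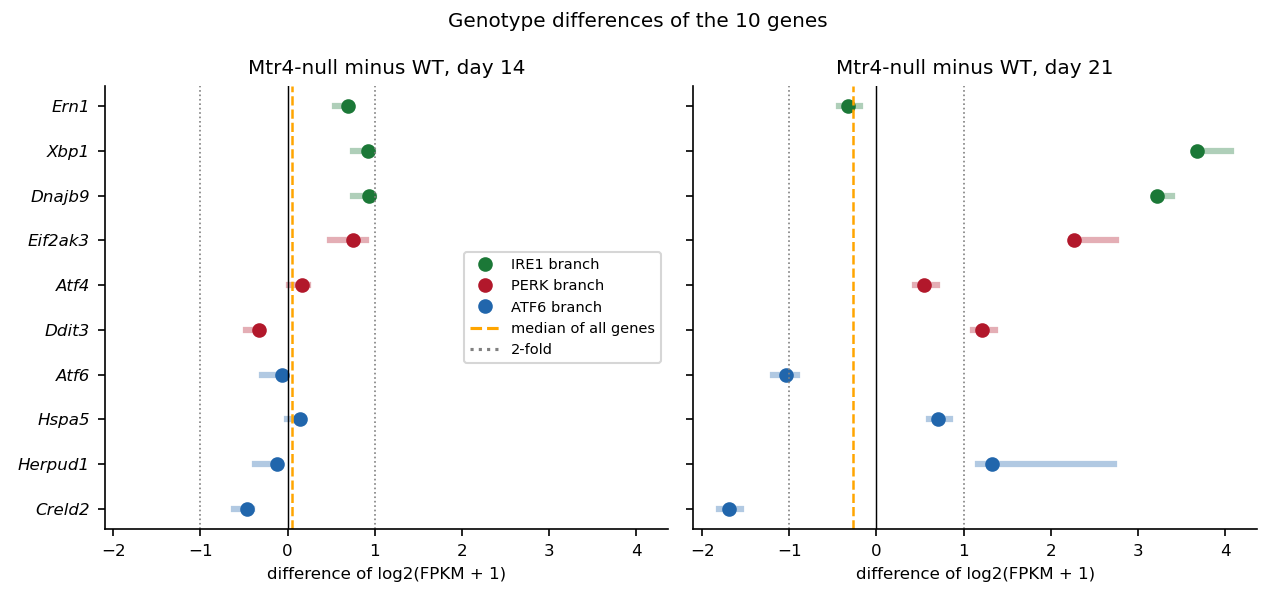
Mtr4-null minus WT difference of log2(FPKM + 1) (horizontal axis) of each member at day 14 (left) and day 21 (right); points are the deposited scale, bands span all settings tried, the dashed line is the median of all genes and dotted lines mark 2-fold. All points lie within 2-fold at day 14, whereas at day 21 they run from -1.70 for Creld2 to 3.68 for Xbp1.

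Normal growth was compared next, between WT oocytes of day 14 and day 21. Here 1 of 10 members was 2-fold lower with age and none was higher, against 3.32% and 2.02% of all genes (5.35% in either direction). The lower one was Xbp1, at -1.70, and 0.495% of all genes had a more negative value. Herpud1 was next, at -0.86 on a very low level, followed by Eif2ak3 at -0.63 and Dnajb9 at -0.47. The remaining members lay between -0.22 and 0.35.

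Mtr4-null oocytes went another way between the ages. Here 3 members were 2-fold higher at day 21 than at day 14 and none was lower, against 9.08% and 18.6% of all genes (27.7% in either direction). Dnajb9 was higher by 1.82, Ddit3 by 1.77 and Xbp1 by 1.05. The balance of all genes depended on the scaling, with 1082 higher and 2216 lower on the deposited scale, 1553 and 1264 under median-of-ratios scaling and 1483 and 1595 under quantile normalization. Eif2ak3, at 0.89 as deposited, was also past 2-fold under these scalings, at 1.17 and 1.21. With columns set to the same total, Xbp1 was at 0.94 and missed the rule. At the low end, Atf6, Creld2 and Ern1 had values of -0.91, -0.88 and -0.71.

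The age changes in WT and in Mtr4-null oocytes come from different libraries and can be set side by side. Their signs were opposite in 9 of 10 members, where 51.7% of all genes had opposite signs. As the members were chosen with earlier results of these data known, this contrast is descriptive. In 6 members (Xbp1, Herpud1, Eif2ak3, Dnajb9, Hspa5 and Atf4) the value was below 0 in WT and above 0 in Mtr4-null oocytes, and in Ern1, Atf6 and Creld2 it was the reverse. Of all genes, 19.0% had the first pattern and 32.7% the second. Ddit3 alone had the same sign in both. Several of these values are small, such as -0.060 for Atf4 and 0.064 for Atf6 in WT, and with no replicate values their signs may not hold. The count of 9 was the same in all alternatives that kept the 10 members, and it was 8 of 9 with a minimum mean FPKM of 5.

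**Figure D3:**
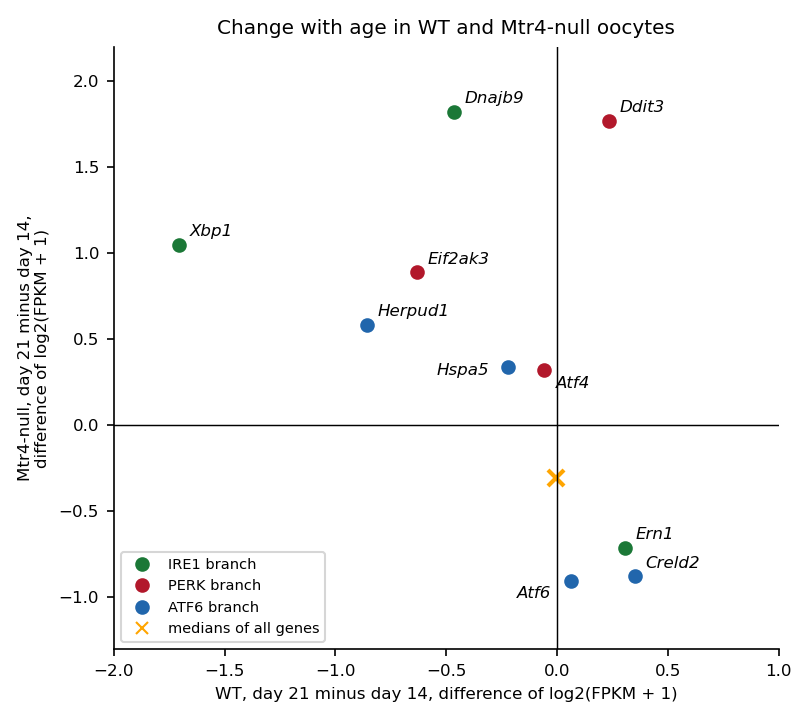
Day 21 minus day 14 difference of log2(FPKM + 1) in WT (horizontal axis) and in Mtr4-null oocytes (vertical axis) for the 10 members, coloured by branch; the cross marks the medians of all genes. In the upper left lie 6 members, with Xbp1 farthest left at -1.70, and Ern1, Atf6 and Creld2 lie in the lower right.

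The difference between the genotype differences of the 2 ages was largest for Xbp1, at 2.76, then Dnajb9 at 2.29, Ddit3 at 1.54, Eif2ak3 at 1.52 and Herpud1 at 1.45. Atf4 and Hspa5 followed with 0.38 and 0.56. It was below 0 for Atf6 at -0.97, Ern1 at -1.02 and Creld2 at -1.23. The longest coding transcript in GENCODE M21 has 3 exons in Dnajb9 and Atf4, 4 in Ddit3, 5 in Xbp1, 8 in Herpud1, 9 in Hspa5 and 17 in Eif2ak3, and it has 10 in Creld2, 16 in Atf6 and 22 in Ern1. The part of exon number in the differences was not tested.

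Wider lists of each arm were then described by the same rule. None of the IRE1, PERK, ATF6 and ER folding lists held a 2-fold difference at day 14, against 8.10% of all genes higher and 1.55% lower. With a pseudocount of 0.1, 1 PERK gene was higher at that age. Of 20 genes tied to IRE1 and XBP1, 19 were kept, and the day 21 counts were 2 higher and 5 lower around a median of -0.30, against 20.2% and 25.7% of all genes, so the lower share was near the background. Quantile normalization and median-of-ratios scaling each left 3 lower. The 2 higher ones were the members Xbp1 and Dnajb9. Among the lower ones, Tram1 of the translocation channel was at 69.2 (WT) and 24.2 FPKM (Mtr4-null), and the coat protein gene Sec24d at 7.40 and 2.27 FPKM. Of the 16 kept genes of this list that are not members, none was 2-fold higher at day 21.

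Of 28 genes of PERK and the integrated stress response, 22 were kept, with day 21 counts of 5 higher and 5 lower around a median of 0.17. The higher share of 5 in 22 and the lower share of 5 in 22 lie near the background of 20.2% and 25.7%. Of the 19 kept genes that are not members, 3 were higher and 5 lower. The higher ones were Chac1 at 3.36 (WT) and 12.9 FPKM (Mtr4-null), Nfe2l2 at 13.4 and 34.8 FPKM and Asns at 0.995 and 3.08 FPKM. Among the lower ones, Ddit4, an inhibitor of mTORC1 signalling, was at 8.85 (WT) and 0.417 FPKM (Mtr4-null). Slc7a11, the cystine transporter and an ATF4 target, was at 32.3 and 5.75 FPKM. Eif2ak4, which encodes the amino acid sensing kinase GCN2, was at 13.0 and 1.63 FPKM, so that the PERK and GCN2 kinase genes lay on opposite sides.

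All 19 genes of the ATF6 list were kept, with day 21 counts of 1 higher and 6 lower around a median of -0.89, or -0.62 relative to that of all genes. The 1 higher gene was Herpud1, which passed the filter only through its day 21 Mtr4-null value. The background was 20.2% higher and 25.7% lower, and the count of 6 depended on the setting, with 3 lower under median-of-ratios scaling, 9 with a pseudocount of 0.1 and 10 with equal column totals. Besides Creld2 and Herpud1, the calcium-binding chaperone gene Calr was at 274 (WT) and 95.7 FPKM (Mtr4-null), and Nfyc, a subunit of NF-Y, at 150 and 58.8 FPKM. The ER folding list had 1 higher and 9 lower of 25 kept genes and a median of -0.65, against the same background. It shares 8 genes with the ATF6 list, of which Calr, Dnajb11 and Dnajc3 are counted as lower in both, so the lists are not separate evidence. Of the 25 genes, 7 had differences above 0, and the one past 2-fold was Ero1l, an oxidase that recharges disulfide isomerases, at 0.990 (WT) and 5.43 FPKM (Mtr4-null). On the low side, Dnajc1 was at 12.9 and 3.23 FPKM, and Ganab, a subunit of glucosidase II, at 14.4 and 4.72 FPKM. Under both median-of-ratios scaling and quantile normalization, 2 folding genes were higher and 5 lower.

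Of 29 genes of ER-associated degradation, 28 were found and kept, of which 2 were higher and none lower at day 14, against 8.10% and 1.55% of all genes. Day 21 counts were 5 higher and 8 lower around a median of 0.09, against 20.2% and 25.7%. At both ages these shares were near the background. The 5 higher ones at day 21 included Herpud1, which was kept only through its day 21 Mtr4-null value. Ube2j2, a ubiquitin-conjugating enzyme of the ER membrane, was at 5.48 (WT) and 31.2 FPKM (Mtr4-null) at day 14, and at 5.59 and 231 FPKM at day 21. H47, the older symbol of the selenoprotein S gene Selenos, was at 20.2 and 31.4 FPKM at day 14 and at 3.53 and 61.9 FPKM at day 21. Rnf139, an ER ubiquitin ligase gene, was at 29.2 and 59.4 FPKM and then at 25.8 and 182 FPKM, but up to 1140 of its exonic bases are shared with Gm49356 or Tatdn1. The lectin gene Os9 was lower at day 21, at 34.4 and 8.0006 FPKM.

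**Figure D4:**
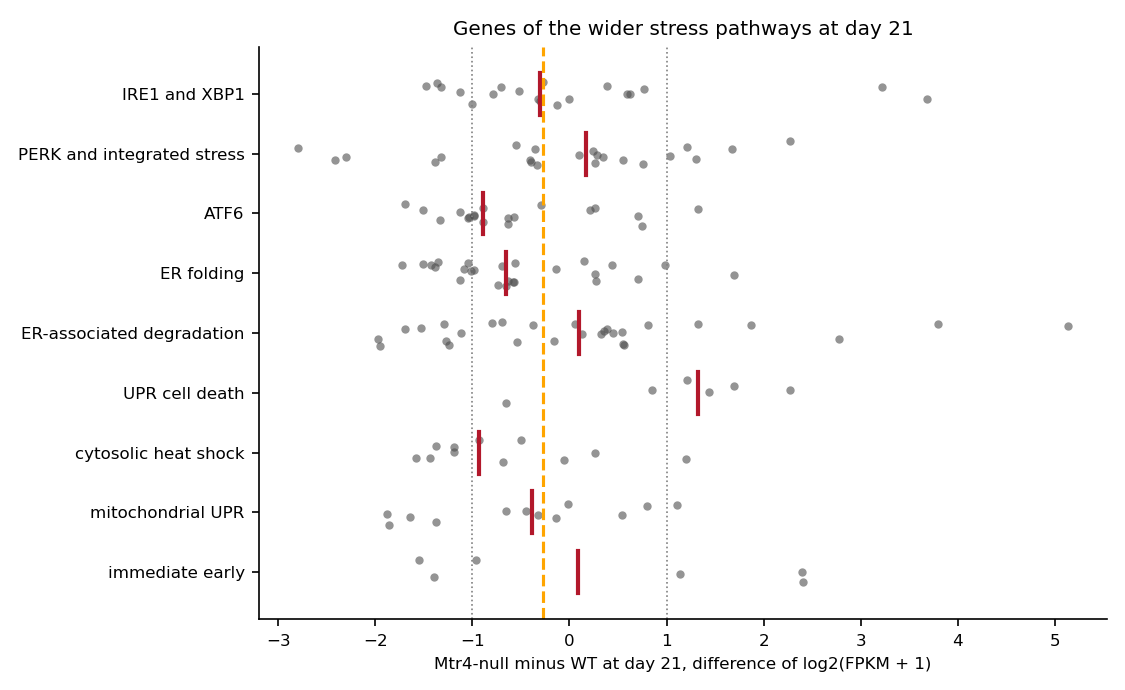
Mtr4-null minus WT difference of log2(FPKM + 1) at day 21 (horizontal axis) for each kept gene of 9 lists; red bars are list medians, the dashed line is the median of all genes and dotted lines mark 2-fold, with vertical scatter only for legibility. The ATF6, ER folding and heat shock medians, at -0.89, -0.65 and -0.93, lie farthest left of the all-gene median of -0.27. The IRE1 and mitochondrial medians, at -0.30 and -0.38, also lie left of it. Single genes of the IRE1 and degradation lists lie far to the right.

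Genes linked to death under ER stress were few. Of 10 genes 6 were kept, and 4 of these were higher and none lower at day 21, against 20.2% and 25.7% of all genes. However, 2 of the 6, Tnfrsf10b and Pmaip1, passed the filter only through their day 21 Mtr4-null values, which favoured their calls. No reading is made of this count. Tnfrsf10b, a death receptor gene that CHOP is known to raise, was at 0.253 (WT) and 5.07 FPKM (Mtr4-null), and Pmaip1, the gene of the BH3 protein NOXA, at 0.284 and 2.47 FPKM.

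Other stress programmes were read against the same day 21 background of 20.2% higher and 25.7% lower. In the cytosolic heat shock list, the day 21 counts were 1 higher and 5 lower of 11 kept genes, around a median of -0.93. Hsp90aa1 was at 970 (WT) and 357 FPKM (Mtr4-null), Hspa8 at 567 and 218 FPKM and the co-chaperone gene Stip1 at 136 and 44.9 FPKM, whereas the heat shock factor gene Hsf2 was at 13.0 and 31.3 FPKM. Of 12 kept genes of the mitochondrial unfolded protein response, 1 was higher and 4 lower, among them the protease gene Lonp1 at 28.95 and 7.25 FPKM and Trap1 at 54.4 and 14.1 FPKM. Immediate early genes, which handling of cells can raise, were divided at day 21, with 3 of 6 higher and 2 lower. Among these, Ier2 was at 1.56 and 12.6 FPKM, Junb at 0.913 and 9.07 FPKM and Egr1 at 6.60 and 1.59 FPKM. Ier2 was also higher at day 14, at 3.15 and 13.5 FPKM, and the part of handling was not tested.

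The ERSE printed above allows a grouping by sequence alone, made after the values of the members were known. It overlaps the lists above, since 10 of its 20 kept genes, and 6 of the 8 lower ones, are in them. An exact ERSE lies in a RefSeq promoter of 37 genes, of which 29 were in the table and 20 were kept. At day 14 none of these 20 was 2-fold higher or lower. At day 21 none was higher and 8 were lower, against 20.2% and 25.7% of all genes, and the median was -0.71, or -0.43 relative to that of all genes. With a pseudocount of 0.1, 1 was higher. The lower ones were Tdrd9, a germ cell gene, at 10.8 and 2.17 FPKM, Creld2, Calr4 at 144 and 48.2 FPKM, Calr, Ero1lb at 27.9 and 13.3 FPKM, Canx at 80.2 (WT) and 30.1 FPKM (Mtr4-null), Derl3 at 94.4 and 39.4 FPKM, and Dnajc3 at 61.1 and 29.1 FPKM, named after their values were seen. Ero1lb and Dnajc3, with differences of -1.01 and -1.05, were at the edge of the rule. With a pseudocount of 0.1 the count of lower genes was 9. Hspa5, at 0.70 on the deposited scale, had the second highest difference of the 20, after Xlr3b at 0.82. The 20 include 3 Xlr3 copies, which resemble each other in sequence and may share reads. Creld2, at -1.70, and Alg12, at 0.21, lie 328 bases apart, so 1 element may be counted for both. The other motifs were grouped in the same way and read against the same day 21 background. With up to 1 mismatch in ERSE, 45 of 236 kept genes were higher and 61 lower. Their median was -0.085 relative to that of all genes. ERSE-II had 2 higher and 2 lower of 8. The UPR element had 14 and 26 of 89, and the composite 43 and 86 of 271.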

How the data were processed

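Per the labels' protocols, lysis was done in a buffer with ERCC RNA and oligo-dT, and Smart-seq2 libraries, which keep no strand, were sequenced. The submitters' processing notes name TopHat2 2.1.1, Cufflinks 2.2.1 and build mm9, with no role or order. The authors deposited FPKM in 1 column per group, as group means, so the design's description by size was used. Differences of log2(FPKM + 1) were computed with pandas 2.3.3 in Python 3.11.15 and checked on simulated data. Genes needed a mean FPKM of at least 1. The members and lists were chosen with earlier results of these data known. Named genes are all members and, from each wider list, up to 4 genes with the largest 2-fold differences at day 21 and up to 2 at day 14, or the most abundant to make 2. Chac1, Nfe2l2 and Asns of the PERK list were named in addition, after their values were seen. List symbols were matched directly or, for 2, by RefSeq synonym, and 1 symbol was not matched. Sequences came from RefSeq (GRCm38.p6) and GENCODE M21, whose build differs from the authors' mm9. ERCC values were not used here.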

Additional observations from a re-analysis of the deposited data

How the results depend on the processing

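No paired analysis was possible because the columns are group means and carry no replicate numbers. Leaving out single replicates was not run for the same reason. The counts of members 2-fold apart between genotypes stayed at 0 higher and 0 lower at day 14 under all 6 alternatives, and at day 21 between 4 and 5 were higher. With a minimum mean FPKM of 5 Herpud1 is not tested. Under median-of-ratios scaling 1 member rather than 2 was lower at day 21, since Atf6 no longer reached 2-fold. With a pseudocount of 0.1, 2 members were lower with age in WT and 1 in Mtr4-null oocytes, where Herpud1 and Atf6 were added, and with columns set to the same total 2 were lower in each, with Herpud1 added in WT and Atf6 and Creld2 in Mtr4-null oocytes. No direction of a 2-fold difference of a member reversed.

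List counts moved as follows. At a pseudocount of 0.1, 1 PERK and 2 death genes were higher at day 14, and 2 folding genes and 1 ERSE gene at day 21, where 9 ATF6 genes were lower. At a minimum mean of 5, no ATF6 or folding gene, that is 0 of each, 1 death gene and 1 immediate early gene were higher and 1 immediate early gene lower at day 21. Under median-of-ratios scaling, 3 IRE1, 3 ATF6 and 5 folding genes were lower and 2 folding genes higher at day 21, and 1 degradation gene was higher at day 14. Quantile normalization gave 3 IRE1 and 5 folding genes lower and 2 folding genes higher at day 21, and 1 degradation gene higher at day 14. With columns set to the same total, 10 ATF6 genes were lower. The ERSE alternatives were chosen after seeing the data. The median of all genes at day 21, -0.27 as deposited, was -0.15 under median-of-ratios scaling and -0.39 with equal totals. Depth per library is unknown, which limits low genes such as Herpud1 most.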

Other observations

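The genes flanking the 10 members were read off RefSeq (GRCm38.p6), as the nearest gene on each side that has a row in the table, leaving out Gm models and short RNA loci. Genes overlapping a member were passed over. Distances ran from 328 bases (Alg12 to Creld2) to 2250309 bases (Immp2l to Dnajb9), so a neighbour need not be close. Of these 20 neighbours 15 passed the filter on low FPKM, and at day 21 4 were 2-fold higher and 2 lower in Mtr4-null oocytes, against 20.2% and 25.7% of all genes. The higher ones were Znrf3 beside Xbp1, at 5.34 (WT) and 25.1 FPKM (Mtr4-null), Pim3 beside Creld2 at 3.67 and 25.6 FPKM, Arhgap9 beside Ddit3 at 3.33 and 10.5 FPKM, and Fbxw2 beside Hspa5 at 5.37 and 17.1 FPKM. They lie 75794, 35513, 25622 and 27835 bases away, in that order. The lower ones were Tex2 beside Ern1, at 11.7 (WT) and 2.03 FPKM (Mtr4-null), and Rpia beside Eif2ak3, at 3.24 and 0.946 FPKM. No reading is made of these counts. Pim3 was also higher at day 14, at 5.94 and 14.01 FPKM, so that it and Creld2 lay on opposite sides of 0 at both ages. Neither neighbour of Dnajb9 differed 2-fold, with Pnpla8 at 24.6 and 14.8 FPKM at day 21.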
